A study of Mus musculus with 15 samples.

Results

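The 10 genes *Tyr*, *Tyrp1*, *Dct*, *Mlana*, *Oca2*, *Slc45a2*, *Slc24a5*, *Mitf*, *Kit* and *Mc1r* encode the pigment-making machinery of the melanocyte and its main regulators. They were chosen by name and matched by gene symbol, and all 10 were found among the 21110 genes with a deposited value. The values are FPKM (fragments mapped to a gene, scaled by the gene's length and by the mapped reads of the library) from ear RNA of C57BL/6 mice, 1 library per mouse, with single reads of 50 bases. The groups were 4 mice of each genotype, wild type and *Socs3* cKO, at an age of 2 weeks, and at 10 weeks 3 wild type and 4 cKO. In cKO mice *Socs3*, an inhibitor of cytokine signalling through STAT3, was deleted under keratin 5 control, so the targeted cell is the basal keratinocyte and not the melanocyte. The labels name keratinocytes as the source and the ear as the tissue, and the RNA was extracted from ear specimens, so whole ears with many cell types are assumed. No label gives the sex of the mice or says whether mice shared a litter.

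Melanocytes are pigment cells of neural crest origin. In mice they lie in hair follicles, where they hand pigment to the growing hair shaft, and, in the ear and tail, also in the epidermis and dermis between follicles. Tyrosinase (*Tyr*) catalyses the rate-limiting first steps from tyrosine to melanin, while *Tyrp1* and *Dct* act further along the path to dark eumelanin. The melanosome, the organelle in which this happens, needs ion and substrate transport (*Oca2*, *Slc45a2*, *Slc24a5*) and structural and sorting proteins such as *Mlana*. *Mitf* is the master transcription factor of the lineage and binds CATGTG-like E-boxes in pigment gene promoters, *Kit* is the receptor for stem cell factor (*Kitl*), and *Mc1r* is the melanocortin receptor that turns on eumelanin. C57BL/6 mice carry the nonagouti allele and are black.

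The promoters of the enzyme genes are shown because all 3 enzymes are known targets of *Mitf*. Each line gives the 250 bases before the RefSeq transcript start (RefSeq on GRCm38.p6, each found once on its chromosome in mm9), read 5′ to 3′ along the gene. Capitals mark AGTCATGTGCT, the longest run that the *Tyr* and *Tyrp1* windows share and the sequence known as the M-box, and CATGTG or its reverse complement CACATG in *Dct*.
*Tyr*, chr7:94642023-94642272, minus strand: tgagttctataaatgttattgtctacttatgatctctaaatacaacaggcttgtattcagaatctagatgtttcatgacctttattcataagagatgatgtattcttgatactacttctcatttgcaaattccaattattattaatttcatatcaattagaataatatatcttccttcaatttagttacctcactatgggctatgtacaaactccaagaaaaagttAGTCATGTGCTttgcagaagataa
*Tyrp1*, chr4:80479867-80480116, plus strand: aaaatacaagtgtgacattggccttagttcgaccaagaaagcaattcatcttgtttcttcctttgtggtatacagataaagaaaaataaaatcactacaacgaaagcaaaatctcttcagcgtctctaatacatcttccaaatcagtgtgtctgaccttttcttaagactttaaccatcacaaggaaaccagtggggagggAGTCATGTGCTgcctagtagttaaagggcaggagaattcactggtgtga
*Dct*, chr14:118451469-118451718, minus strand: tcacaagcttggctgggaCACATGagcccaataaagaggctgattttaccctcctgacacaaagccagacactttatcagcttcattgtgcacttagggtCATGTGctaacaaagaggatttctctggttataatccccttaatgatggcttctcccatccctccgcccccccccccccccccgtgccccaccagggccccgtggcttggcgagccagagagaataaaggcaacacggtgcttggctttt
This run lay at -24 to -14 in *Tyr* and at -49 to -39 in *Tyrp1*, and 7 of 32851 mouse promoter windows of this length (0.0213%) held it on either strand. Its presence in these 2 genes follows from how it was found. These positions count from the RefSeq start, and the GENCODE genes given below start elsewhere. GENCODE places the 5′ end of *Tyr* at chr7:94641943, past the end of its window. It places that of *Tyrp1* at chr4:80480027, inside its window, so the run of *Tyrp1* lies within the GENCODE gene. The *Dct* window held the shorter TCATGTG, which is part of this run, at -232 to -226 on the opposite strand and at -151 to -145 on its own. Across the promoter table, 8 of the 10 genes had an entry, with 11 windows between them. TCATGTG occurred in 5 of the 11 windows (*Tyr*, *Tyrp1*, *Dct*, *Slc24a5* and *Mc1r*), against 3.25% of all windows. CATGTG, which TCATGTG contains, occurred in 6 of the 11, with *Oca2* added, against 12.3%. CACGTG occurred in none, against 6.02%. The windows of *Kit* and *Mitf* held neither TCATGTG nor CATGTG. *Mlana* and *Slc45a2* had no entry.

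The genes lie on 9 chromosomes (mm9, GENCODE), and all are protein-coding. *Tyr* (chr7:94574910-94641943) and *Oca2* (chr7:63495130-63791887) share chromosome 7. *Mc1r* (chr8:125930982-125934642) has 1 annotated exon, and *Oca2* has 25. In the annotation, *Slc24a5* (chr2:124893860-124914413) shares 921 exon bases with *Myef2* on the opposite strand, and the library kit used does not mark strand, so reads of the shared part cannot be assigned to 1 of the 2 genes. Read counts were not used here. From the FPKM that a single read would give, the libraries were estimated to hold 11730000 to 16790000 mapped reads, and *Mc1r* rests on an estimated 13 to 100 reads, *Oca2* on 15 to 190 and *Tyrp1* on 200 to 4100.

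*Socs3* itself was checked first. Its level in wild type mice at 2 weeks was 9.71, 10.2, 10.3 and 10.3 FPKM, and in the libraries labelled *Socs3* cKO it was 1.25, 9.32, 12.6 and 3.51 FPKM, so replicate 3 lay above every wild type mouse. At 10 weeks the wild type had 2.76, 4.81 and 2.02 FPKM and *Socs3* cKO 36.5, 29.8, 47.7 and 32.4 FPKM. The level of the whole gene in whole ear does not show a deletion confined to keratinocytes, and at 10 weeks it went against the label, so the groups are called *Socs3* cKO as labelled in each comparison below. The sample titles carry codes that run in separate ranges for the 4 groups, and no label says what the codes stand for. Replicate 1 of *Socs3* cKO at 2 weeks stood apart from the other 14 libraries: its values fell by 1.37 on the log2 scale for each 10 points of GC content relative to the mean of all libraries, where the other 14 ranged from -0.31 to 0.55. The 4 wild type libraries at 2 weeks held the top of that range, at 0.51 to 0.55, and no other library exceeded 0.24. Their values also rose by 0.21 to 0.30 for each doubling of gene length, where the other libraries ranged from -0.51 to 0.19. These 4 libraries are the reference of the genotype comparison at 2 weeks and of the wild type change with age. The 3 wild type libraries at 10 weeks listed 1414 to 3176 genes at 0, and the other 12 listed 4044 to 4423.

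The level of the genes in wild type ears at 2 weeks differed widely between genes. On the FPKM scale, which is per length, *Dct* was highest with 75.9 ± 8.25 (SD, n = 4), followed by *Mlana* with 53.2 ± 9.96 and *Tyrp1* with 47.2 ± 5.79, and the ranges of *Mlana* and *Tyrp1* overlapped. *Slc24a5* came next at 11.8 ± 1.86 FPKM, apart from both neighbours. *Mitf* (7.08 ± 1.01), *Kit* (6.37 ± 0.84) and *Tyr* (5.74 ± 0.63) followed with overlapping neighbours, then *Slc45a2* (3.40 ± 0.37), *Oca2* (2.30 ± 0.34) and *Mc1r* (1.55 ± 0.45), of which the last pair overlapped. The rate-limiting enzyme *Tyr* was far below the other enzymes, and in each wild type mouse at 2 weeks *Tyrp1* was 7.78 to 8.85 times as high as *Tyr*. In wild type mice at 10 weeks the order was different, with *Mlana* first (37.3 ± 13.8 FPKM, SD, n = 3), *Dct* second (16.1 ± 2.60) and *Oca2* last (0.54 ± 0.06).

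**Figure D1:**
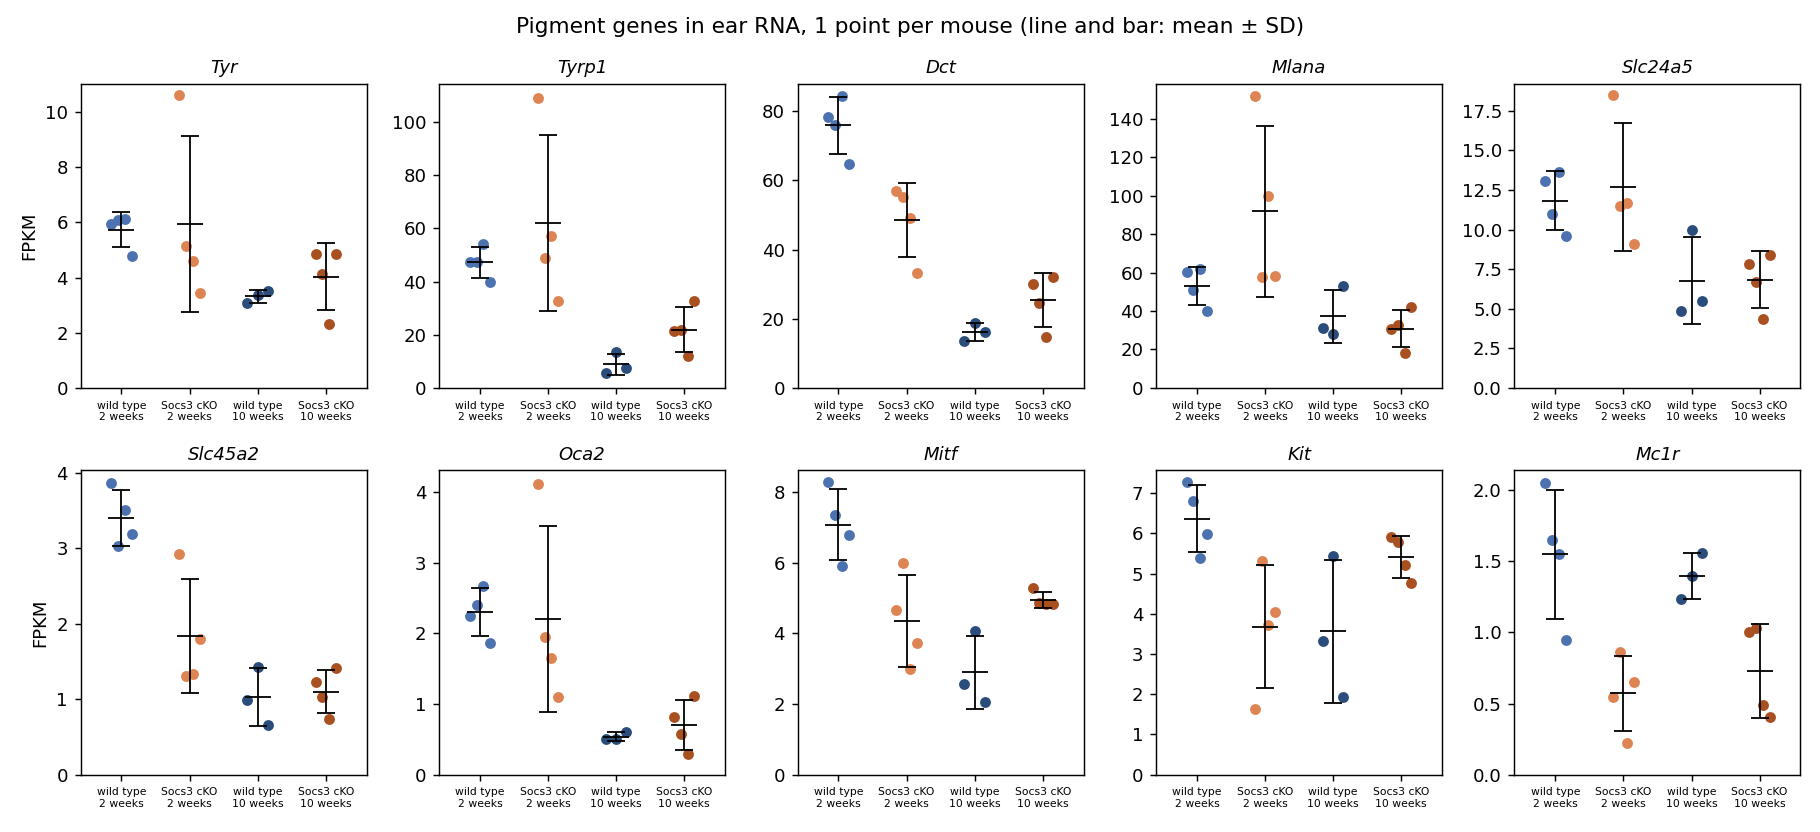
FPKM (vertical axis) of each of the 10 genes in each mouse, with 1 point per mouse, 1 panel per gene and the 4 groups along the horizontal axis; lines and bars give the mean ± SD (n = 4, 4, 3 and 4). *Dct*, *Tyrp1*, *Oca2*, *Slc45a2* and *Mitf* sit lower in all 3 wild type mice at 10 weeks than in all 4 at 2 weeks, and 1 *Socs3* cKO mouse at 2 weeks is far above its group in *Tyr*, *Tyrp1*, *Mlana* and *Oca2*. Of all genes tested with age in the wild type, 66.8% had groups that did not overlap in either direction.

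The enzyme genes had these values. *Tyr* stood at 5.96, 6.08, 6.12 and 4.795 FPKM in wild type mice at 2 weeks, 10.6, 5.15, 4.59 and 3.44 in 2-week *Socs3* cKO, 3.08, 3.36 and 3.52 in 10-week wild type and 4.86, 4.12, 2.30 and 4.86 in 10-week *Socs3* cKO. *Tyrp1* stood at 47.3, 47.3, 54.2 and 40.0 FPKM in 2-week wild type, 109, 48.9, 57.0 and 32.6 in 2-week *Socs3* cKO, 5.50, 13.4 and 7.59 in 10-week wild type and 21.3, 21.7, 11.9 and 32.7 in 10-week *Socs3* cKO. *Dct* stood at 78.4, 76.1, 84.4 and 64.7 FPKM in 2-week wild type, 56.8, 55.1, 49.0 and 33.2 in 2-week *Socs3* cKO, 13.4, 18.6 and 16.3 in 10-week wild type and 30.1, 24.5, 14.6 and 32.0 in 10-week *Socs3* cKO. *Tyr* and *Tyrp1* of replicate 1 of *Socs3* cKO at 2 weeks, the library that stood apart, were the highest of all 15 mice, and its *Dct* was below every wild type mouse of that age.

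*Mlana*, a melanosomal membrane protein, had 60.1, 50.7, 61.7 and 40.1 FPKM in 2-week wild type, 152, 57.8, 99.7 and 58.2 in 2-week *Socs3* cKO, 30.9, 27.8 and 53.1 in 10-week wild type and 30.9, 32.6, 18.1 and 42.1 in 10-week *Socs3* cKO. *Slc45a2*, a melanosomal transporter, had 3.87, 3.03, 3.51 and 3.19 FPKM in 2-week wild type, 2.92, 1.30, 1.33 and 1.80 in 2-week *Socs3* cKO, 0.98, 1.43 and 0.66 in 10-week wild type and 1.22, 1.03, 0.74 and 1.42 in 10-week *Socs3* cKO. *Oca2*, an anion channel of the melanosome, had 2.25, 2.41, 2.68 and 1.86 FPKM in 2-week wild type, 4.12, 1.95, 1.65 and 1.10 in 2-week *Socs3* cKO, 0.50, 0.51 and 0.61 in 10-week wild type and 0.81, 0.57, 0.29 and 1.12 in 10-week *Socs3* cKO. *Slc24a5*, a cation exchanger, ranged over 9.61 to 13.6, 9.09 to 18.5, 4.89 to 9.94 and 4.34 to 8.42 FPKM in the same 4 groups, with the genotypes overlapping at each age.

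*Mitf*, the lineage regulator, had 8.30, 7.35, 5.90 and 6.79 FPKM in 2-week wild type, 4.67, 6.00, 2.98 and 3.74 in 2-week *Socs3* cKO, 2.58, 4.06 and 2.05 in 10-week wild type and 5.28, 4.85, 4.85 and 4.82 in 10-week *Socs3* cKO. *Kit*, the stem cell factor receptor, had 7.28, 6.81, 5.39 and 5.98 FPKM in 2-week wild type, 1.64, 5.32, 3.73 and 4.03 in 2-week *Socs3* cKO, 3.33, 5.43 and 1.92 in 10-week wild type and 5.90, 5.77, 5.20 and 4.77 in 10-week *Socs3* cKO. *Mc1r* had 2.05, 1.65, 1.55 and 0.95 FPKM in 2-week wild type, 0.55, 0.86, 0.22 and 0.65 in 2-week *Socs3* cKO, 1.23, 1.40 and 1.56 in 10-week wild type and 1.004, 1.03, 0.49 and 0.41 in 10-week *Socs3* cKO. At 10 weeks every cKO mouse had more *Mitf* than the highest wild type mouse, and less *Mc1r* than the lowest. At that age 42.3% of all genes tested had groups that did not overlap.

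In all, 5 of the pigment genes fell with age in the wild type. Between 2 and 10 weeks *Tyrp1* fell by 2.49 on the log2 scale and *Dct* by 2.24, with *Oca2*, *Slc45a2* and *Mitf* also down-regulated, and all 10 genes had a negative log2(FC), *Mc1r* only until other scalings were used. In bulk tissue, fewer melanocytes and less of each RNA per melanocyte cannot be told apart. Here log2(FC) is the difference in mean log2(FPKM + 0.1), tested with limma and Benjamini-Hochberg adjustment over all genes with at least 1 FPKM in at least 3 samples; a gene was called at an adjusted p below 0.01 and a |log2(FC)| of at least 1. Of the 10 genes 5 were called, all lower, where 25.5% of the 13937 genes tested were called, 6.18% higher and 19.4% lower. The log2(FC) was -2.49 for *Tyrp1* (SE 0.39, adjusted p = 0.000224) and -2.24 for *Dct* (SE 0.26, adjusted p = 1.6e-05). It was -1.90 for *Oca2* (SE 0.40, adjusted p = 0.00179), -1.69 for *Slc45a2* (SE 0.31, adjusted p = 0.000641) and -1.31 for *Mitf* (SE 0.25, adjusted p = 0.000892). The other 5 did not pass: *Kit* had -0.93 (95% interval -1.69 to -0.17), *Slc24a5* -0.85 (-1.48 to -0.22), *Tyr* -0.77 (-1.47 to -0.07), *Mlana* -0.55 (-1.31 to 0.21) and *Mc1r* -0.10 (-0.94 to 0.74). In 6 of the 10 genes (the 5 called and *Tyr*) no wild type mouse at 10 weeks reached the lowest at 2 weeks, against 66.8% of all genes tested whose groups did not overlap in either direction. The median log2(FC) was -1.12 over the 10 genes and -0.44 over all genes. They moved to -0.74 and -0.05 under median-of-ratios scaling and to -0.55 and 0.05 under quantile normalization, where 1568 genes were called higher and 1727 lower, and 1644 and 1661, in place of 861 and 2698. The called pigment genes were then *Tyrp1*, *Dct* and *Slc45a2* in the former and *Tyrp1* and *Dct* in the latter. *Mc1r* turned to 0.27 and 0.58 under these scalings.

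In *Socs3* cKO mice the change with age was in the same direction for most of the genes, and 1 passed the test. *Mlana* fell by 1.51 on the log2 scale (SE 0.33, adjusted p = 0.00981), a value just inside the threshold. It was 1 of the 10 genes called, against 3.54% of all genes called, 2.01% higher and 1.53% lower. *Oca2* had -1.49 (SE 0.37, adjusted p = 0.0219), *Tyrp1* -1.44 (SE 0.36, adjusted p = 0.0223) and *Dct* -0.97 (SE 0.24, adjusted p = 0.0193), none of which passed. *Kit*, *Mc1r* and *Mitf* had positive values, 0.65, 0.32 and 0.23, with intervals that included 0. No *Socs3* cKO mouse at 10 weeks reached the lowest at 2 weeks in 3 genes, *Dct*, *Mlana* and *Slc24a5*, against 14.5% of all genes tested whose groups did not overlap. The *Mlana* call was not stable: it was lost in all but 4 of the 15 fits that left out 1 library (adjusted p up to 0.0378), among them the fit without replicate 1 of *Socs3* cKO at 2 weeks (log2(FC) -1.23, adjusted p = 0.0161), and when only the *Socs3* cKO mice were fitted (adjusted p = 0.0576). The median was -0.76 over the 10 genes and 0.11 over all genes.

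The genotype by age interaction, which tests whether the difference between *Socs3* cKO and the wild type was the same at both ages, was called for *Mitf*. Its interaction was 1.54 (SE 0.34, adjusted p = 0.00334), from -0.73 at 2 weeks to 0.81 at 10 weeks. That was 1 of 10 genes at an adjusted p below 0.01, where 25.6% of all genes passed, 18.5% with a positive and 7.05% with a negative sign. *Dct* had 1.27 (SE 0.35, adjusted p = 0.0101) and *Kit* 1.58 (SE 0.48, adjusted p = 0.0167), neither of which passed. The median interaction was 0.73 over the 10 genes and 0.55 over all genes, and they moved to 0.29 and 0.09 under median-of-ratios scaling and to 0.09 and -0.06 under quantile normalization, where *Mitf* had 1.08 (adjusted p = 0.0153) and 0.66 (adjusted p = 0.107). The genes that passed were 2583 with a positive and 983 with a negative sign, and 1798 and 1679, and 1865 and 2285, under these scalings. Leaving out replicate 1 or replicate 3 of the wild type at 10 weeks also ended the *Mitf* call, with 1.48 (adjusted p = 0.0109) and 1.32 (adjusted p = 0.0112).

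**Figure D2:**
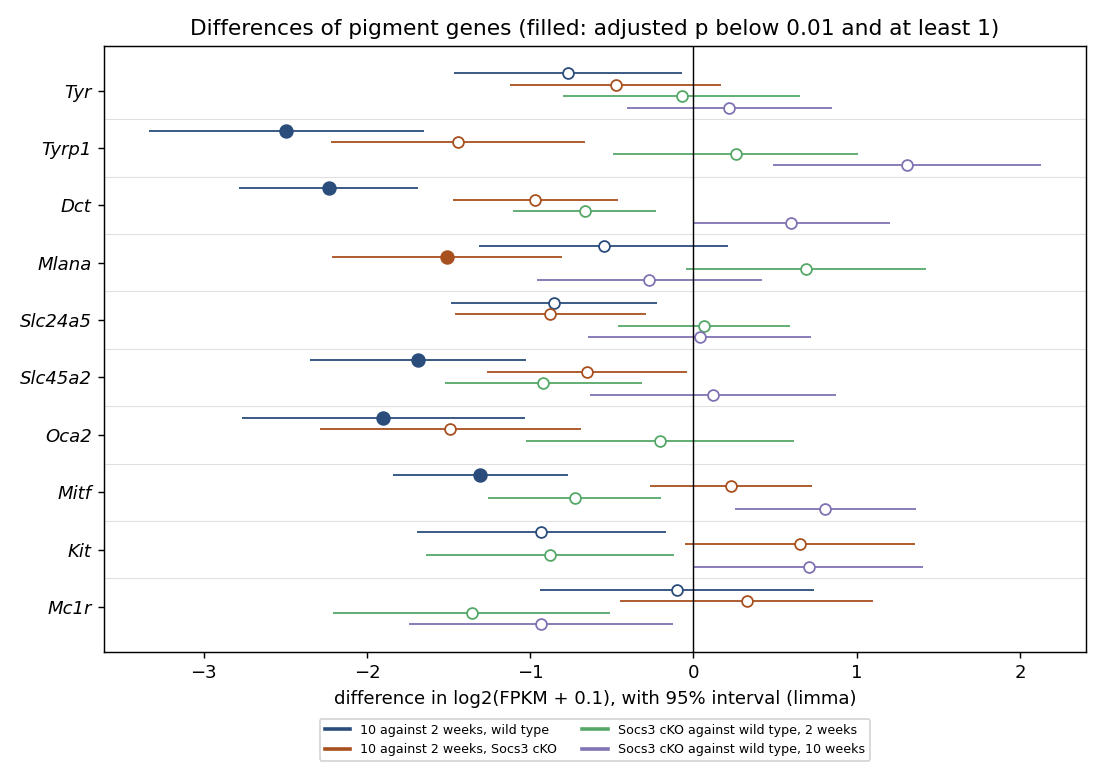
Difference in log2(FPKM + 0.1) (horizontal axis) for each of the 10 genes with its 95% interval from limma, in 4 comparisons given by colour; a filled point passed the threshold. The wild type change with age is filled for *Tyrp1*, *Dct*, *Oca2*, *Slc45a2* and *Mitf*, the *Socs3* cKO change with age for *Mlana*, and no genotype comparison is filled; *Oca2* was not tested at 10 weeks.

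At 2 weeks the genotypes differed in no pigment gene at the threshold used. The largest differences among the genes with lower means were *Mc1r* at -1.36 (SE 0.37, adjusted p = 0.0195), *Slc45a2* at -0.92 (SE 0.26, adjusted p = 0.0231), *Kit* at -0.88 (SE 0.33, adjusted p = 0.0557), *Mitf* at -0.73 (SE 0.23, adjusted p = 0.0327) and *Dct* at -0.67 (SE 0.19, adjusted p = 0.0229). With limma 0 of 10 genes were called in *Socs3* cKO against the wild type, where 14.4% of 13524 genes were called, 7.24% higher and 7.19% lower. At an unadjusted p below 0.05 there were 5 of 10, all of these 5 lower, against 58% of all genes tested. All 4 *Socs3* cKO mice were below all 4 wild type mice in *Dct*, *Kit*, *Mc1r* and *Slc45a2*, each with an exact 2-sided permutation p of 0.0286, the smallest that 4 mice against 4 can give, and 56.1% of all genes tested had groups that did not overlap. *Tyr* had -0.07 (95% interval -0.80 to 0.65), *Tyrp1* 0.26 (-0.49 to 1.01), *Mlana* 0.69 (-0.05 to 1.42), *Oca2* -0.21 (-1.02 to 0.61) and *Slc24a5* 0.06 (-0.46 to 0.59). Without replicate 1 of *Socs3* cKO, in a fit that called 2680 genes in place of 1951, *Tyr* had -0.39, *Tyrp1* -0.06, *Oca2* -0.55 and *Slc24a5* -0.13, none passing, and *Slc45a2* passed with -1.16 (adjusted p = 0.000547). Without replicate 2 of *Socs3* cKO, *Mc1r* passed with -1.57 (adjusted p = 0.00992), in a fit that called 3348 genes in place of 1951. The median was -0.44 over the 10 genes and -0.21 over all genes, and they moved to -0.25 and -0.02 under median-of-ratios scaling and to -0.11 and 0.06 under quantile normalization.

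At 10 weeks no pigment gene passed either, and the mean levels of *Tyrp1* and *Mitf* were above those of the wild type. *Tyrp1* had a log2(FC) of 1.31 (SE 0.37, adjusted p = 0.0205), *Mitf* 0.81 (SE 0.25, adjusted p = 0.0294), *Kit* 0.71 (SE 0.31, adjusted p = 0.1) and *Dct* 0.60 (SE 0.27, adjusted p = 0.106). *Mc1r* had -0.93 (SE 0.36, adjusted p = 0.0664). With limma 0 of 9 genes were called, where 14.9% of 13105 genes were called, 12.5% higher and 2.43% lower. *Oca2* was not tested, since no more than 1 of the 7 mice reached 1 FPKM. At an unadjusted p below 0.05 there were 4 of 9, of which 3 were higher and 1 lower, against 48.7% of all genes tested. *Mitf* and *Mc1r* were the genes whose groups did not overlap, against 42.3% of all genes tested, and the smallest exact p that 3 mice against 4 can give is 0.0571. *Tyr* (95% interval -0.41 to 0.85), *Mlana* (-0.96 to 0.42), *Slc45a2* (-0.64 to 0.87) and *Slc24a5* (-0.64 to 0.72) had intervals that included 0. Replicate 2 of the wild type at 10 weeks was the highest of its group in *Tyrp1* and *Mitf*. Without it both passed, *Tyrp1* with 1.66 (adjusted p = 0.00762) and *Mitf* with 1.07 (adjusted p = 0.00371), in a fit that called 2665 genes in place of 1957. *Tyrp1* also passed without replicate 3 of *Socs3* cKO, with 1.57 (adjusted p = 0.00892), in a fit that called 1219 genes. The median was 0.22 over the 9 genes and 0.31 over all genes, and they moved to -0.05 and 0.03 under median-of-ratios scaling and to -0.10 and -0.03 under quantile normalization, so that the median of the pigment genes turned direction. Under these scalings 1036 genes were called higher and 660 lower, and 884 and 747, in place of 1638 and 319. The comparisons at the 2 ages share no mice, while each shares its mice with the changes with age above.

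The summed pigment RNA overlapped between genotypes, while the share that single genes took of it did not always. Summed over the 10 genes, the level was 178 to 239 FPKM in 2-week wild type and 148 to 361 in *Socs3* cKO, and 66.5 to 92.7 and 62.7 to 133 at 10 weeks, with overlapping ranges at each age. *Dct*, *Tyrp1* and *Mlana* together made up 81.3% to 83.8% of the sum in wild type mice at 2 weeks. *Dct* alone gave 34.3% to 36.3% of it there, against 15.7% to 28.4% in 2-week *Socs3* cKO, 17.5% to 21.7% in 10-week wild type and 23.3% to 27.6% in 10-week *Socs3* cKO. *Mlana* gave 22.5% to 26.3%, 29.8% to 43.0%, 32.4% to 57.2% and 28.3% to 31.7% in the same order. The ratio of *Dct* to *Tyrp1*, which act one after the other on the eumelanin path, was 1.56 to 1.66 in wild type mice at 2 weeks and 0.52 to 1.13 in 2-week *Socs3* cKO. At 10 weeks it was 1.39 to 2.44 in the wild type against 0.98 to 1.42 in *Socs3* cKO. The genes differ in length, with 623 bases for *Mlana* and 2261 for *Dct*, and the libraries differed in how values moved with gene length. With length and GC trends removed, the genotype difference of *Mlana* at 2 weeks was -0.29 in place of 0.69. The part of length and GC content in the shares was not tested. These shares and ratios are given as a description, with no test.

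**Figure D3:**
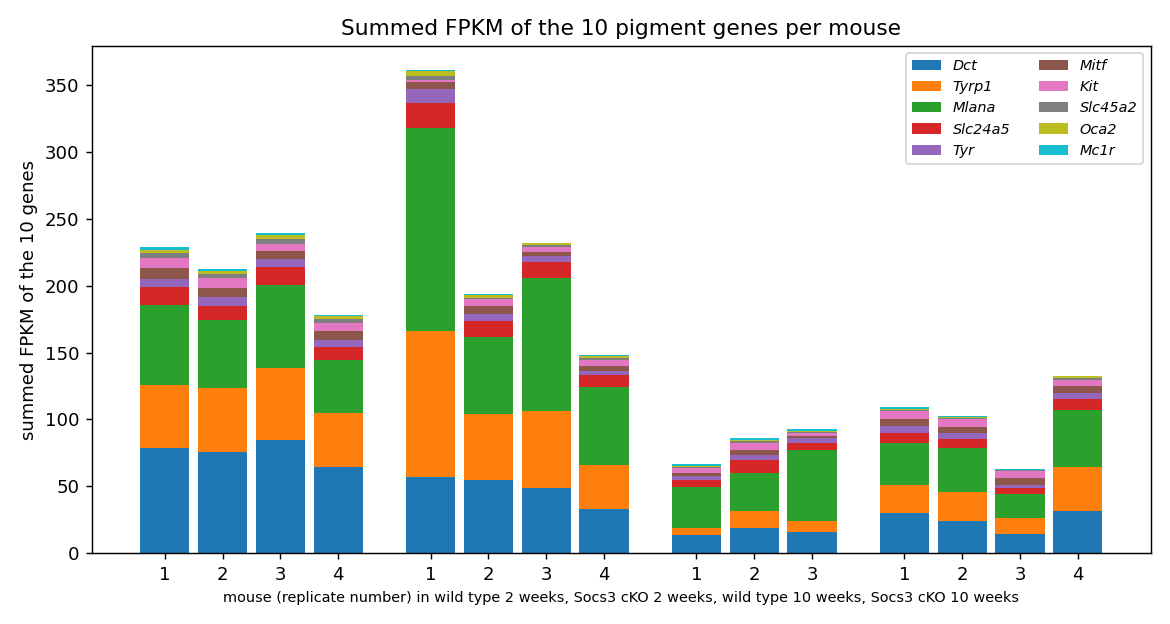
Summed FPKM of the 10 genes (vertical axis) in each of the 15 mice (horizontal axis, by group and replicate), with each gene as a coloured segment of the bar. *Dct*, *Tyrp1* and *Mlana* fill most of every bar, and replicate 1 of *Socs3* cKO at 2 weeks is the tallest at 361 FPKM.

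Genes of the lineage that are not among the 10 were examined as a list of transcription factors and receptors. *Sox10*, which activates *Mitf* in melanocytes and is also active in Schwann cells, had 13.3 to 14.2 FPKM in wild type mice at 2 weeks, 0.80 to 6.74 in 2-week *Socs3* cKO, 2.56 to 4.797 in 10-week wild type and 1.56 to 3.97 in 10-week *Socs3* cKO. Its log2(FC) was -1.90 (SE 0.58, adjusted p = 0.0283) between genotypes at 2 weeks and -1.91 (SE 0.55, adjusted p = 0.0105) with age in the wild type, neither of which passed. *Ednrb*, the endothelin receptor that melanoblasts need, had 19.9 to 23.2 FPKM in wild type mice at 2 weeks and 3.86 to 4.52 at 10 weeks, a log2(FC) of -2.32 (SE 0.22) that passed. *Erbb3*, a neuregulin receptor, fell by 4.33 on the log2 scale (SE 0.77) over the same time. Of the list, 2 of 6 genes tested were called with age in the wild type, both lower, where 19.4% of all genes tested were called lower. Between genotypes, 14.4% of all genes tested were called at 2 weeks and 14.9% at 10 weeks, with 12.5% called higher at 10 weeks. At 2 weeks 0 of 6 were called between genotypes with limma, and without replicate 1 of *Socs3* cKO *Sox10* and *Ednrb* were called lower, in a fit that called 1753 genes lower in place of 972. At 10 weeks 2 of 5 were called higher in *Socs3* cKO: *Erbb3*, with 3.13 (SE 0.61, adjusted p = 0.00451), and the zinc finger factor *Zeb2*, with 1.36 (SE 0.17, adjusted p = 0.000686), which was not called under quantile normalization. *Gpr143*, a melanosomal receptor, did not exceed 0.97 FPKM in any mouse and was not tested. *Pmel* was not analysed here.

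Among the signals that reach melanocytes from their neighbours, *Kitl*, the ligand of *Kit*, was not called in either genotype comparison. *Kitl* had 6.80 to 7.88 FPKM in the wild type against 8.08 to 11.3 in 2-week *Socs3* cKO, a log2(FC) of 0.41 (SE 0.16, adjusted p = 0.0605), and 5.92 to 8.96 against 9.03 to 11.03 at 10 weeks, a log2(FC) of 0.52 (SE 0.19, adjusted p = 0.0594). Of 9 signals tested, 2 were higher and 1 lower at 2 weeks: *Hgf*, the ligand of Met (2.08, SE 0.36), and *Corin*, a dermal papilla protease known to restrain agouti signalling (1.97, SE 0.23), rose, and *Edn1*, an endothelin (-1.41, SE 0.22), fell. At 10 weeks 3 of 9 were called, all higher: *Fgf2*, a growth factor for melanocytes (2.76, SE 0.42), *Hgf* (2.71, SE 0.34) and *Mgrn1*, a ubiquitin ligase of the melanocortin pathway (1.01, SE 0.17). *Hgf*, *Corin* and *Fgf2* were also called under both other scalings, and *Edn1* at 2 weeks and *Mgrn1* at 10 weeks under neither. *Edn3*, the ligand of *Ednrb*, had -0.46 (SE 0.19, adjusted p = 0.0656) at 2 weeks and 0.78 (SE 0.36, adjusted p = 0.11) at 10 weeks. The agouti gene, *Asip*, is listed under its older symbol a and had 0.37 to 5.37 FPKM over all mice, with no call. *Pomc*, the precursor of the melanocortin ligand of *Mc1r*, did not exceed 0.371 FPKM and was not tested. With age in the wild type 1 of 9 signals was higher and 3 were lower. Under median-of-ratios scaling 1 was higher and 2 were lower, and under quantile normalization 1 was higher and 1 lower. Over all genes tested, 7.24% were called higher and 7.19% lower at 2 weeks, and 12.5% and 2.43% at 10 weeks. With age in the wild type these shares were 6.18% and 19.4%.

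The remaining genes of the melanosome and its transport are given by list, beside 14.4% of all genes called at 2 weeks, 14.9% at 10 weeks and 25.5% with age in the wild type. In the list of melanosome structure and transporters, 1 of 8 genes was lower at 2 weeks, *Tpcn2*, a cation channel of the melanosome (-1.32, SE 0.25, adjusted p = 0.0055). Under quantile normalization this call was lost and 2 of the 8, *Rab32* and *Rab38*, were called higher. At 10 weeks 2 of 8 were higher: *Gpnmb*, a melanosomal glycoprotein that macrophages also make (1.70, SE 0.24, adjusted p = 0.00122), and *Atp7a*, which supplies copper to tyrosinase (1.35, SE 0.26, adjusted p = 0.00398), the latter not under quantile normalization. With age in the wild type 3 of 8 were lower, where 19.4% of all genes tested were called lower. They were led by *Trpm1*, a channel of melanocytes and *Mitf* target (-3.14, SE 0.32), which had 9.79 to 12.3 FPKM at 2 weeks and 0.88 to 1.33 at 10 weeks. Under median-of-ratios scaling and under quantile normalization only *Trpm1* stayed lower with age, and *Rab32* was called higher. Without replicate 1 of *Socs3* cKO at 2 weeks, *Trpm1* was also called lower between genotypes at that age, in a fit that called 1753 genes lower in place of 972. Of 6 genes of melanosome movement and transfer, *F2rl1*, the keratinocyte receptor that promotes melanosome uptake, was called in both genotype comparisons, with -1.09 (SE 0.17) at 2 weeks and 1.34 (SE 0.30) at 10 weeks, and in neither under median-of-ratios scaling or quantile normalization. Of 18 genes of lysosome-related organelle biogenesis, 1 was higher at 2 weeks, *Lyst* (1.43, SE 0.30), the gene of the beige coat mutant, and 2 were higher at 10 weeks, *Lyst* (3.09, SE 0.37) and the adaptor subunit *Ap3b1* (1.49, SE 0.22).

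Markers of the hair shaft and matrix moved with age and genotype at 2 weeks. The mean log2(FPKM + 0.1) of 11 such genes was 5.76 to 6.36 in wild type mice at 2 weeks, and it was -1.31 to 0.37 in 2-week *Socs3* cKO, -1.59 to -1.22 in 10-week wild type and -2.03 to 0.69 in 10-week *Socs3* cKO. All 11 were called lower in both *Socs3* cKO at 2 weeks (median log2(FC) -7.30) and the wild type at 10 weeks (median -8.86). Over all genes tested, 7.19% and 19.4% were called lower in these comparisons. *Krt31* had 78.9 to 133 FPKM, *Krt33a* 100 to 173 and *Krt33b* 74.7 to 131 in wild type mice at 2 weeks, and no mouse of another group exceeded 4.30 FPKM in any of them. The mean log2(FPKM + 0.1) of the 10 pigment genes was 3.04 to 3.44 in wild type mice at 2 weeks and 2.57 to 3.36 in 2-week *Socs3* cKO. The overlap rested on replicate 1 of *Socs3* cKO, the library that stood apart, at 3.36, and the other 3 mice, at 2.97, 2.71 and 2.57, lay below every wild type mouse. With all mice kept, 56.1% of all genes tested at 2 weeks had groups that did not overlap, and the median log2(FC) over all genes was -0.21. Without replicate 1 the median log2(FC) was -0.55 over the 10 genes and -0.10 over all genes. The share of genes without overlap was not computed for that set of mice, so the separation of these 3 mice has no background beside it. The mean over the 10 genes was not tested. At 10 weeks the mean over the 10 genes was 1.82 to 2.29 in the wild type against 1.74 to 2.53 in 10-week *Socs3* cKO. The part of hair markers in the pigment gene results was not tested.

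**Figure D4:**
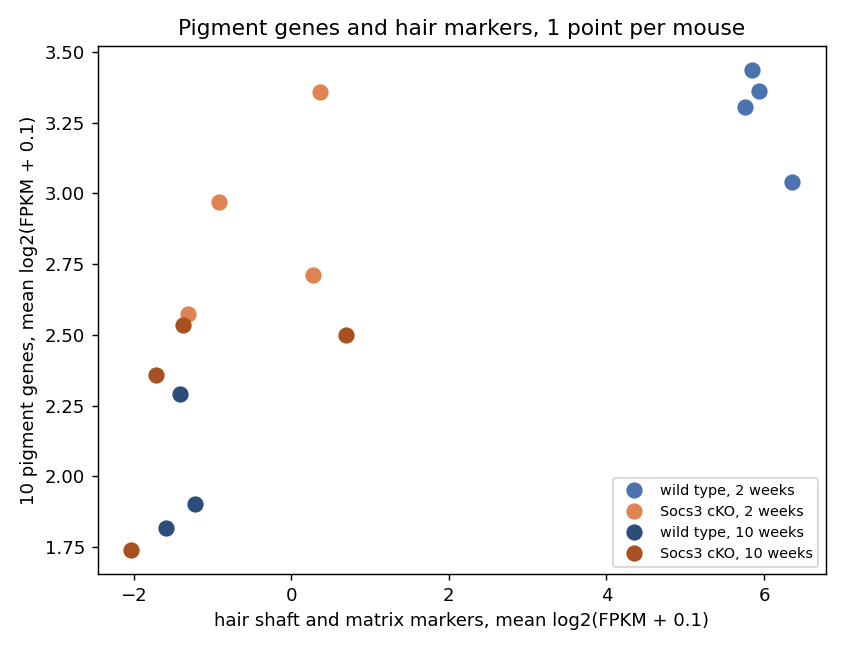
Mean log2(FPKM + 0.1) of the 10 pigment genes (vertical axis) against that of 11 hair shaft and matrix markers (horizontal axis), 1 point per mouse, coloured by group. The wild type at 2 weeks stands alone between 5.76 and 6.36 on the hair axis, while *Socs3* cKO at 2 weeks, with hair markers from -1.31 to 0.37, spans 2.57 to 3.36 on the pigment axis. The top point of *Socs3* cKO at 2 weeks is replicate 1, and its other 3 mice, up to 2.97, lie below the wild type of that age. These means were not tested.

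Other cell types were followed in the same way through their markers. Their counts are given beside 7.24% of all genes tested called higher at 2 weeks and 12.5% at 10 weeks. Mast cells carry *Kit* and *Mitf*, and their markers had a mean log2(FPKM + 0.1) of 3.73 to 3.89 in the wild type against 4.34 to 5.07 in 2-week *Socs3* cKO, and of 3.80 to 4.17 and 4.48 to 5.41 at 10 weeks. Of these markers 2 of 7 were called higher at 2 weeks and 2 of 8 at 10 weeks; *Cpa3* had 101 to 108 FPKM in wild type mice at 2 weeks and 143 to 420 in *Socs3* cKO. The top *Cpa3* value was that of replicate 1 of *Socs3* cKO, the library that stood apart, and the next highest mouse had 232 FPKM. *Cpa3*, *Cma1* and *Mcpt4* were not called in either genotype comparison. All 7 markers tested at 2 weeks had a log2(FC) above 0. At 10 weeks 5 of the 8 lay above 0 and 3 below, *Cma1* and *Mcpt4* among the latter. The mean of *Cma1* was then 119 FPKM in *Socs3* cKO, below the 149 FPKM of its controls. Macrophage markers, which go with *Mitf* and *Gpnmb*, were called higher in 0 of 5 genes at 2 weeks and 4 of 5 at 10 weeks (1 of 5 under either other scaling), with means of 3.26 to 3.90 in the wild type against 4.79 to 5.01 in 10-week *Socs3* cKO. *Emr1* had 4.30 to 8.20 against 12.3 to 22.7 FPKM, *Csf1r* 21.1 to 23.6 against 49.5 to 53.9, and *Cd68* 18.2 to 32.9 against 51.6 to 68.3. Schwann cells share *Sox10* and *Erbb3* with melanocytes, and *Mbp*, a gene of their myelin, had 82.1 to 90.4 FPKM in the wild type at 2 weeks and 32.4 to 59.7 at 10 weeks. Markers of the keratinocytes between follicles (*Krt5*, *Krt14*, *Krt1*, *Krt10*) had means of 9.33 to 11.4 over all 15 mice, and 1 of 4 was called between genotypes at 2 weeks, *Krt14*, which was higher, a call lost under both other scalings and without replicate 1 of *Socs3* cKO. No marker of these lists was at 0 in every mouse of a group. The part of these cells in the results was not tested.

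The genes most like the pigment genes across mice were looked up by the Pearson r of their log2(FPKM + 0.1) with the mean of the 7 enzyme and melanosome genes over the 15 mice. The 8 closest were *Meox2* (r = 0.966), *Gpc3* (0.952), *Zfp354a* (0.947), *9430007A20Rik* (0.939), *Zfp27* (0.933), *Zfp426* (0.926), *Sesn1* (0.924) and *Rsl1* (0.922), of 13927 genes ranked. *Gpc3*, a cell surface proteoglycan, had 104 to 117 FPKM in wild type mice at 2 weeks, 50.2 to 132 in 2-week *Socs3* cKO, 18.4 to 32.4 in 10-week wild type and 26.3 to 47.9 in 10-week *Socs3* cKO. Of melanocyte genes outside the 10, *Ednrb* had r = 0.898, with 16 genes above it, and *Trpm1* r = 0.891, with 25 above, while *Sox10* had r = 0.369 and the hair keratin *Krt31* r = 0.676. The 15 points share the split by age and the library differences above, and these values are a description.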

How the data were processed

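Total RNA of mouse ears was sequenced as 1 library per mouse (TruSeq RNA). Per the labels and the study's methods, the authors aligned the reads to mm9 with TopHat2 2.1.0 and deposited an FPKM value per gene and library from Cufflinks; the study tested read counts with edgeR, which were not used here. FPKM is scaled by gene length and library size, so a few very abundant RNAs lower all others, and depth could be estimated only from the smallest values, so no counting interval is given on any single value.

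Groups came from the labels. Values were tested as log2(FPKM + 0.1) with limma 3.58.1 (R 4.3.3, trended prior variance) over genes with at least 1 FPKM in at least 3 samples of the fit. The genotype comparisons used the 2 groups compared, and the changes with age and the interaction used all 15 samples. P-values were Benjamini-Hochberg adjusted over all genes tested. A fold change on this scale understates that of low genes. No label says that mice were littermates or independent cultures, and p-values measure only the spread between these libraries. No 2 libraries shared more than 1 identical value above 0. The scripts were tested on simulated data.

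The 10 genes, the gene lists and the tests were chosen with earlier results of these data known. The genes named were the 10 genes, *Socs3*, *Pmel*, *Gpr143*, *Sox10*, *Kitl*, *Edn3*, *Asip* and *Pomc*, up to 3 called genes of largest |log2(FC)| per list and genotype comparison, the first 3 measured markers of each cell type (some Schwann cell markers, and the counts over that list, are not reported here) and the 8 genes of closest pattern; *Ednrb*, *Trpm1*, *Rab32* and *Rab38*, and single genes named for the change with age, were added after their values were seen. *Tfap2a*, *Pmel*, *Mfsd12*, *Tpsab1* and *Krt85* were not analysed here. Alternatives were the pseudocount (0.01 and 1), the filter on low values, median-of-ratios and quantile scaling, a replicate block, a constant prior variance, the samples in the fit, each library left out and, chosen after seeing the data, removal of length and GC trends per library and the calls of the gene lists under other scalings and without 1 library. Positions and overlaps came from GENCODE on mm9, and promoters from RefSeq on GRCm38.p6 matched to mm9. Python 3.11.15 was used for the other steps.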

Additional observations from a re-analysis of the deposited data

Results flagged for a closer look

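In 33 groups of 4 mice, 3 had a mouse whose gap to the nearest other made up more of the group's range than the 95% critical value of Dixon's test, where chance gives about 1 in 20. *Tyr* in wild type mice at 2 weeks was lowest in replicate 4, with 4.795 FPKM (0.876 of the range). *Mitf* in *Socs3* cKO at 10 weeks was highest in replicate 1, with 5.28 FPKM (0.946 of a narrow range). *Socs3* in wild type mice at 2 weeks was lowest in replicate 1, with 9.71 FPKM (0.866 of a narrow range).

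The difference between genotypes was not the same at both ages for *Mitf*, with an interaction of 1.54 on the log2 scale (limma adjusted p = 0.00334), a call that other scalings ended. For *Socs3* the interaction was 4.60 (limma adjusted p = 0.000644), with 3 of 4 *Socs3* cKO mice below every wild type mouse and 1 above at 2 weeks, and all 4 above at 10 weeks.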

How the results depend on the processing

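The number of the 10 genes called changed as follows. Between genotypes at 2 weeks it was 0, and 1 when all 4 groups were fitted together (*Mc1r*, adjusted p = 0.00748) or with length and GC trends removed (*Mitf*, -1.07), and 0 to 1 with 1 library left out. At 10 weeks it was 0, and 0 to 2 with 1 library left out. With age in the wild type it was 5, and 3 with median-of-ratios scaling, 2 with quantile normalization, 7 with length and GC trends removed (*Mlana* and *Slc24a5* added) and 5 to 6 with 1 library left out. With age in *Socs3* cKO it was 1, and 0 with a pseudocount of 0.01, no filter, median-of-ratios scaling, the replicate block, a constant prior variance or a fit of the 2 groups alone, 2 with length and GC trends removed and 0 to 1 with 1 library left out. For the interaction it was 1, and 2 with a pseudocount of 1, the filter that needs 1 FPKM in every sample of a group or length and GC trends removed, 0 with median-of-ratios scaling or quantile normalization, and 0 to 3 with 1 library left out. Over all genes, the main fits called 1951, 1957, 3559, 493 and 3566 in this order of comparisons. With 1 library left out, 859 to 3348, 745 to 2665, 2205 to 4519, 300 to 700 and 1994 to 5117 were called. The 3 interaction calls came in the fit of 5117, out of 13909 tested. With length and GC trends removed, 1554 were called at 2 weeks, 2901 with age in the wild type, 648 in *Socs3* cKO and 3272 for the interaction. A pseudocount of 1 gave 4115 for the interaction. The cause of these changes was not tested.

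The median over the pigment genes at 2 weeks, -0.44, was -0.81 with length and GC trends removed. Between genotypes at 2 weeks *Tyr* had 0.12 after median-of-ratios scaling and 0.28 after quantile normalization, where *Oca2* also had 0.28. With length and GC trends removed *Tyr* had -0.95 (adjusted p = 0.00476), *Tyrp1* had -0.18, *Mlana* -0.29 and *Slc24a5* -0.85 (adjusted p = 0.00687). At 10 weeks, *Tyr* had -0.05, -0.22 and -0.24 with median-of-ratios scaling, quantile normalization and trends removed, and *Slc45a2* had -0.13, -0.1 and -0.02. *Slc24a5* had -0.24 and -0.39 under the scalings, and *Mlana* 0.32 with trends removed. With age in the wild type, *Mc1r* had 0.27, 0.58 and 0.42 under these 3 settings. The interaction was -0.17 and -0.5 for *Tyr* and -0.01 and -0.16 for *Oca2* under the scalings, -0.01, -0.43 and -0.28 for *Mc1r* under the 3 settings, and 0.56 for *Mlana* and 0.93 for *Slc24a5* with trends removed.

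With 1 library left out, the genotype difference at 2 weeks ranged from -0.39 to 0.14 for *Tyr*, -0.06 to 0.52 for *Tyrp1*, -0.55 to 0.06 for *Oca2* and -0.13 to 0.21 for *Slc24a5*. At 10 weeks it ranged from -0.45 to 0.01 for *Mlana*, -0.13 to 0.37 for *Slc45a2* and -0.16 to 0.35 for *Slc24a5*. The wild type change of *Mc1r* ranged from -0.3 to 0.04 and the interaction of *Slc24a5* from -0.22 to 0.28.

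The deviations of same-numbered mice had a mean r of 0.02 between genotypes at 2 weeks and -0.11 at 10 weeks. Different numbers gave -0.01 and 0.04. For the change with age the mean r was 0.02 among *Socs3* cKO mice (-0.004 for different numbers). Among wild type mice it was 0.06 (-0.02 for different numbers). Only 3 or 4 same-numbered pairs entered each comparison, so these values cannot show whether the numbers pair mice. With the replicate block, *Slc45a2* had -0.01 and *Slc24a5* -0.08 between genotypes at 10 weeks and *Slc24a5* an interaction of 0.02; 751 in place of 1951 genes were called at 2 weeks, and *Mlana* with age in *Socs3* cKO was lost (adjusted p = 0.0205). Over all genes, 3300 were called at 2 weeks when all 4 groups were fitted together, and 146 in place of 493 with age in *Socs3* cKO when its 2 groups were fitted alone. Calls with age in the wild type were 861 higher and 2698 lower, and 1568 and 1727 with median-of-ratios scaling. *Mc1r*, *Oca2* and *Slc45a2* rest on the fewest estimated reads.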
